A study of Mus musculus with 31 samples.

Results

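Lyl1, Tal1, Lmo1, Lmo2, Hhex and Mef2c are 6 transcription regulators known as oncogenes or markers of T cell acute leukemia. They were taken as a named list and followed over the 6 groups and over single tumors, to ask which of them were raised together and which apart. They are 6 of the 18193 genes with a probe set of their own on the array, and they were read by 10 probe sets, of which Mef2c had 5. The tumors were 7 from KO mice (NDR1-/-), 7 from HT mice (NDR1+/-) and 5 from WT mice (NDR1+/+), and the thymi were 4 of each genotype. NDR1 is a protein kinase encoded by Stk38. All mice were C57BL/6. Each thymus group held both sexes, whereas all tumors were from females except HT tumor 04 and KO tumor 02, which were from males. Mice with tumors had been given 100 mg/kg of the alkylating mutagen ENU (N-ethyl-N-nitrosourea) and were sampled when a tumor developed or 9 months after ENU at the latest, whereas the thymi were normal and from untreated mice. Tumor and thymus therefore differ in ENU as well as in disease, and their effects cannot be told apart. The labels name thymus as the tissue, while sample titles name thymocytes and tumor cells. They do not state that each array came from a separate animal, so p-values measure the spread between these arrays.

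LYL1 and TAL1 are basic helix-loop-helix proteins that bind the E-box sequence as dimers with E proteins. LMO1 and LMO2 bind no DNA themselves and bridge such dimers to LDB1 and GATA factors. HHEX is a homeodomain protein that lies downstream of Lmo2 in mouse T cell leukemia, and MEF2C is a MADS-box factor raised in human immature T cell leukemia. Lmo2, Hhex and Mef2c are also expressed in normal B cells, so B cell marker genes were read beside them.

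The genes lie apart in the mouse genome (GRCm38.p6), with Lyl1 at chr8:84701423-84704716, Tal1 at chr4:115056426-115071755 and Lmo1 at chr7:109138565-109175207. Lmo2 is at chr2:103957903-103981878, Hhex at chr19:37434841-37440731 and Mef2c at chr13:83504017-83667079. RefSeq promoter windows of 300 bases (250 before the start of transcription and 50 after it) were matched for 5 of the 6 genes, in 9 windows, with several starts for some genes. The windows of Lyl1, Lmo1 and Hhex are shown because Lyl1 and Lmo1 passed the comparison of tumors with thymi, and Hhex followed another member most closely over tumors. Capitals mark matches to the E-box, CANNTG, or to a GATA motif, on either strand. The GATA motif was spelled AGATAA with its variant AGATAG, and also TGATAA with its variant TGATAG. The windows run 5′ to 3′ on the strand of the gene, at chr8:84701207-84701506 (+) for Lyl1, chr7:109175158-109175457 (-) for the first Lmo1 start and chr19:37434591-37434890 (+) for Hhex.
Lyl1: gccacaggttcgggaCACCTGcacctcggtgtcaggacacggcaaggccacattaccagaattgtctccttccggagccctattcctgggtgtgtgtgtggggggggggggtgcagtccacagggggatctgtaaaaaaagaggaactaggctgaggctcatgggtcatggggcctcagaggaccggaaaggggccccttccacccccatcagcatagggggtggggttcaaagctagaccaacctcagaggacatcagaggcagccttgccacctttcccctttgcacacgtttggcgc
Lmo1: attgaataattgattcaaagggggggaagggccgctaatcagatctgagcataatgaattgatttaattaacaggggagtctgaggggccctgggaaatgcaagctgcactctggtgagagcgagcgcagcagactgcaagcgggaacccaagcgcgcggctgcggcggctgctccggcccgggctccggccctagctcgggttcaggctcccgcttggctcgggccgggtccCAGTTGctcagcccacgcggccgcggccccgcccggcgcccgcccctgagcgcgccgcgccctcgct
Hhex: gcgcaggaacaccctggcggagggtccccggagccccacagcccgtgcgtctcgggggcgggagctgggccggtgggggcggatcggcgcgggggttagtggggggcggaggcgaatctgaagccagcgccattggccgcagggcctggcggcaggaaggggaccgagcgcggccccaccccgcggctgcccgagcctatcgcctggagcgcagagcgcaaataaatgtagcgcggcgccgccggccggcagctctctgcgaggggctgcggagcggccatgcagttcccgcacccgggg
The Lyl1 and Lmo1 windows each held 1 E-box and no GATA match, and the Hhex window held neither. An E-box was in 72.3% and a GATA motif in 29.8% of the 32851 promoter windows of the same length, so a match here is a description only. The Lyl1 window also held 1 match to an ETS motif, spelled CCGGAAG or AGGAAGT and present in 17.3% of windows.

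Values are log2(intensity + 1), and all arrays shared a median of 4.39 and an upper quartile of 8.39 on that scale. How many arrays there were sets the precision of each value. The typical gene (median over genes) had an SD of 0.655 among KO tumors, 0.603 among HT tumors and 0.447 among WT tumors, and of 0.173 to 0.187 in the thymus groups. Stk38, the targeted gene, averaged 10.92 ± 0.329 in KO thymi, 11.44 ± 0.115 in HT thymi and 11.86 ± 0.148 in WT thymi (SD, n = 4 each), and 11.09 ± 1.89, 11.77 ± 0.755 and 12.15 ± 0.724 in KO, HT and WT tumors. The labels do not say which part of the gene is deleted, so this probe set need not check the genotype labels. Thymocyte genes averaged 9.33 to 12.41 in tumors and 13.01 to 13.16 in thymi, over the 13 of 15 listed genes that were tested. RNA of this list was thus detected on every array. In such bulk RNA, fewer cells of a type and less RNA per cell cannot be told apart. As a gauge of RNA integrity, 3′ over 5′ signal of the actin and Gapdh controls (log2) had a median of 0.974 in tumors and 0.332 in thymi, and 15 of 19 tumors were above the highest thymus.

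Lyl1 was the member raised in most tumors, and Lmo1 was the other member that passed the comparison of all tumors with all thymi. Lmo2, Hhex and Mef2c were high in some tumors and at thymus level in others, and their differences averaged over genotypes did not pass. Tal1 was near the floor of the array on every one of the 31 arrays. So 2 of the 5 members tested passed and both were higher, where 11.6% of all genes tested were called higher and 24.2% were called in either direction (limma, Benjamini-Hochberg adjusted p under 0.05 over 14016 genes). Over the 5 members tested the median difference was +1.35, against +0.05 over all genes tested.

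**Figure D1:**
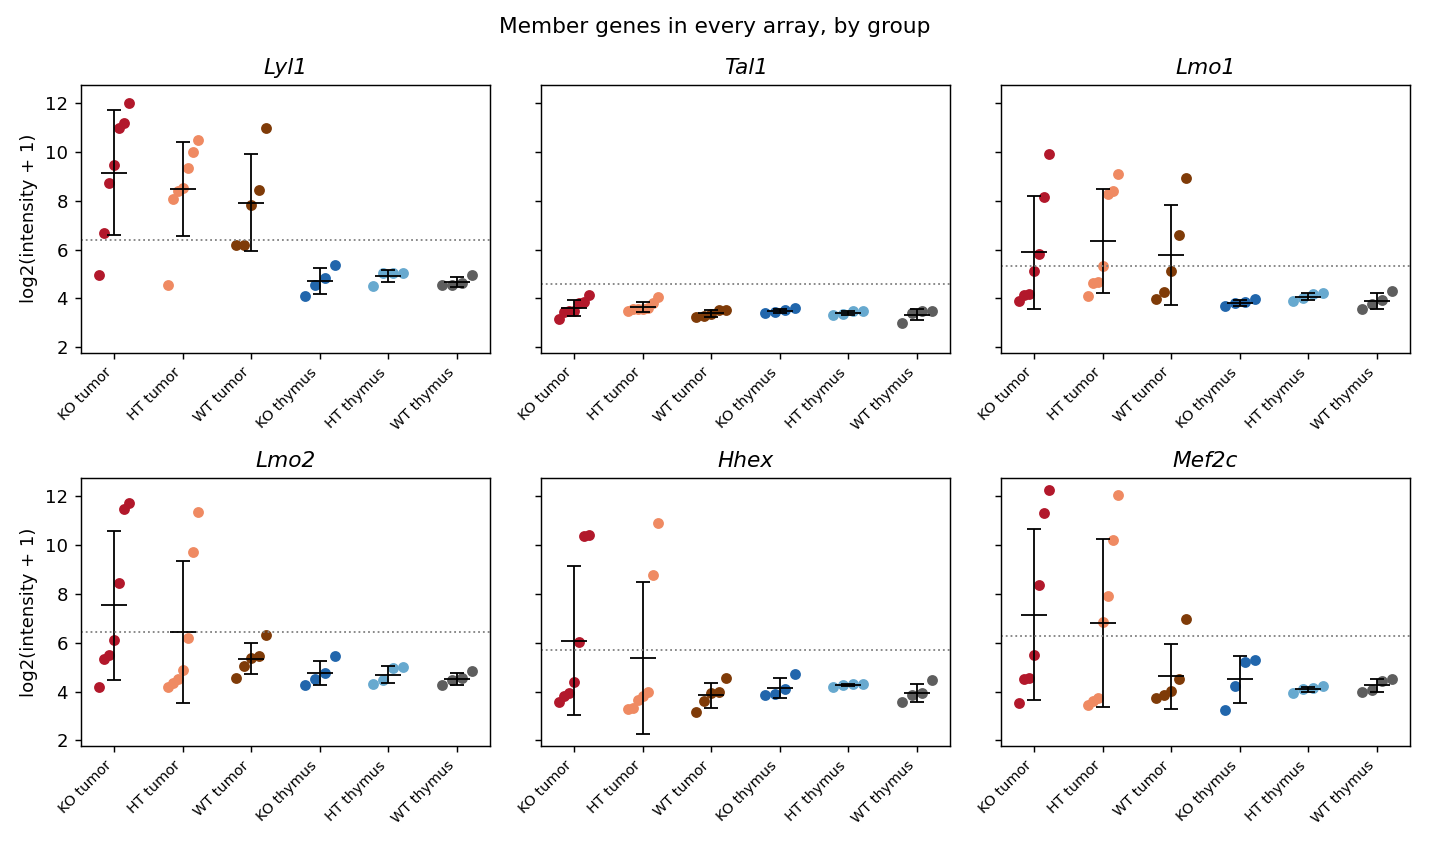
Each point is 1 array, with log2(intensity + 1) on the vertical axis and the group on the horizontal axis. Bars give the mean and SD, and the dotted line is 1 above the highest thymus. Lyl1 lies above that line in 15 of 19 tumors, Lmo1 in 9, Mef2c in 8, Lmo2 and Hhex in 5 each, and Tal1 in none.

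Lyl1 encodes the LYL1 helix-loop-helix factor (probe set 1419120_at). In KO tumors it had a lowest value of 4.97, a median of 9.48 and a highest of 11.99. In HT tumors these were 4.56, 8.52 and 10.51. The 5 WT tumors had 6.19, 6.20, 7.83, 8.42 and 10.997. The KO thymi had 4.11, 4.57, 4.83 and 5.38, the HT thymi 4.52, 5.02, 5.03 and 5.04, and the WT thymi 4.54, 4.56, 4.63 and 4.94. All WT tumors were above all thymi, whereas 1 KO tumor and 1 HT tumor were within the thymus range. The group means were 9.15 ± 2.56 in KO tumors (n = 7), 8.48 ± 1.95 in HT tumors (n = 7) and 7.93 ± 1.98 in WT tumors (SD, n = 5), and 4.67 to 4.90 in the thymus groups. Neighbouring tumor groups differed by less than their SDs. The thymus groups differed by 0.24 at most, with SDs of 0.531 in KO, 0.254 in HT and 0.187 in WT thymi. Averaged over genotypes, Lyl1 was +3.33 ± 0.698 (SE) in tumors relative to thymi, a 10.1-fold difference (limma adjusted p = 0.00102). With the 3′ to 5′ ratio as a covariate the difference was +2.80 (limma adjusted p = 0.00762).

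Within genotypes, the difference in Lyl1 between tumors and thymi was +4.06 for KO, +3.21 for HT and +2.74 for WT. It passed for KO (limma adjusted p = 0.0282, 1 of 5 members tested, where 4.76% of genes were called and 2.1% were called higher). It did not pass for HT (limma adjusted p = 0.116, 3.5% of genes called) or for WT (limma adjusted p = 0.174, 6.56% called). At an unadjusted limma p under 0.05, Lyl1 and Lmo1 were counted in each genotype, 2 of the 5 members, where 19.6% of genes were counted for KO, 15.1% for HT and 21.7% for WT. The test of the difference between genotypes called 0 genes (0%) in each of the 3 contrasts. At an unadjusted limma p under 0.05 it counted 119 genes for KO minus WT, 147 for HT minus WT and 73 for KO minus HT, with 0 of the 5 members among them. For KO against WT the Lyl1 difference of differences was +1.32. The KO call was lost with the 3′ to 5′ ratio as a covariate (+3.46, limma adjusted p = 0.0704). It was also lost without any 1 of the 4 KO thymi, or without KO tumor 03, at limma adjusted p between 0.0536 and 0.125.

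Lmo1 encodes a LIM-only bridging protein (probe set 1418478_at). In KO tumors it had a lowest value of 3.90, a median of 5.13 and a highest of 9.91. In HT tumors these were 4.09, 5.31 and 9.08, and the 5 WT tumors had 3.98, 4.25, 5.12, 6.58 and 8.93. The 12 thymi had a lowest value of 3.56, a median of 3.91 and a highest of 4.31. Each genotype thus held tumors within the thymus range and tumors far above it. Averaged over genotypes the difference was +2.55 ± 0.680 (SE), or 5.85-fold (limma adjusted p = 0.00749). It was +2.48 for KO, +2.70 for HT and +2.47 for WT, none of which passed within its genotype (limma adjusted p = 0.189, 0.196 and 0.214). Without the 4 tumors highest in B cell markers, Lmo1 was +2.88 (limma adjusted p = 0.00189) and Lyl1 was +2.98 (limma adjusted p = 0.00133) in tumors relative to thymi.

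Lmo2 encodes the LIM-only protein activated in human T cell leukemia (probe set 1454086_a_at). In KO tumors it had a lowest value of 4.21, a median of 6.11 and a highest of 11.74, and in HT tumors 4.18, 4.90 and 11.35. The WT tumors had 4.55, 5.04, 5.37, 5.46 and 6.30. The 12 thymi had a lowest value of 4.25, a median of 4.52 and a highest of 5.45. The high values were all in KO and HT tumors, and the tumor and thymus values overlapped in every genotype. Averaged over genotypes and adjusted for sex, the difference of tumors from thymi was +1.30 ± 0.823 (SE) and did not pass (limma adjusted p = 0.256). Without sex in the fit it was +1.79 (limma adjusted p = 0.0610).

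Hhex (probe set 1423319_at) encodes the homeodomain factor. In KO tumors it had a lowest value of 3.58, a median of 4.40 and a highest of 10.44, and in HT tumors 3.28, 3.80 and 10.93. The WT tumors had 3.16, 3.61, 3.94, 3.998 and 4.55, against a lowest of 3.57, a median of 4.15 and a highest of 4.71 in the 12 thymi. No WT tumor was above the highest thymus. The difference was +0.57 ± 0.857 (SE, limma adjusted p = 0.659), and -0.29 without the 4 tumors highest in B cell markers (limma adjusted p = 0.316).

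Mef2c encodes the MADS-box factor (main probe set 1421027_a_at). In KO tumors it had a lowest value of 3.55, a median of 5.52 and a highest of 12.25, and in HT tumors 3.46, 6.84 and 12.05. The WT tumors had 3.76, 3.88, 4.01, 4.52 and 6.97, against a lowest of 3.26, a median of 4.17 and a highest of 5.29 in the 12 thymi. The highest WT tumor, WT tumor 01, stood apart from the other WT tumors. The difference was +1.35 ± 0.982 (SE, limma adjusted p = 0.327). The 5 Mef2c probe sets had pairwise Pearson's r between 0.899 and 0.984 over 19 tumors, but they read between 4 and 8 tumors above the thymus range. HT tumor 07 was 7.91 on the main probe set and 3.15 on 1421028_a_at, and HT tumor 05 was 6.84 and 3.45. Only the main probe set read these HT tumors at least 1 above the highest thymus.

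Tal1 (probe set 1449389_at) encodes the helix-loop-helix factor closest to LYL1. It lay between 3.17 and 4.14 in tumors with a median of 3.54, and between 2.98 and 3.60 in thymi with a median of 3.45, where the lowest value on any array was 2.34. It was under the filter on dim genes (a mean of 3.61), so it was fitted without that filter and gave +0.13 ± 0.0948 (SE, limma adjusted p = 0.371).

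Between tumor genotypes, 0 of the 5 members tested and 0 of all genes (0%) passed for KO against WT, HT against WT or KO against HT (limma). At an unadjusted limma p under 0.05, 0 of the 5 members and 473, 390 and 154 genes were counted. Tal1, in the unfiltered fit, was counted in HT against WT (+0.33). The 5 differences for KO against WT ran between -0.38 for Lmo1 and +3.03 for Mef2c, with Lyl1 at +1.57 ± 1.19 (SE), Lmo2 at +2.55 ± 1.43 and Hhex at +2.55 ± 1.49. For HT against WT they ran between +0.08 for Lmo1 and +2.70 for Mef2c. Without the 4 tumors highest in B cell markers, which were KO and HT tumors, the KO against WT differences were +0.98 for Mef2c, +0.69 for Lmo2, +0.55 for Hhex and +0.61 for Lyl1. In the same setting the HT against WT differences turned to -0.41 for Lmo2 and -0.20 for Hhex, against +1.46 and +1.87 with all tumors, and none of these passed. In thymi, 0 of 5 members were called in KO against WT (0.186% of genes), HT against WT (0.0214%) or KO against HT (0.0571%), and 0 had an unadjusted limma p under 0.05. Their differences between thymus genotypes were all within -0.24 to +0.39.

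Single tumors were then read against the thymus range, and a member was counted as raised where its log2 value was at least 1 above the highest of the 12 thymi. Lyl1 was raised in 15 of 19 tumors, a count that 0.828% of all genes tested reached or exceeded. Lmo1 was raised in 9 tumors (5.08% of genes reached that count), Mef2c in 8 (6.8%), and Lmo2 and Hhex in 5 each (14.4%). Tal1 was raised in 0 tumors, and no member was at least 1 below the lowest thymus in any tumor. By genotype, Lyl1 was raised in 6 of 7 KO tumors, 6 of 7 HT tumors and 3 of 5 WT tumors. Lmo1 was raised in 3 of 7 KO tumors, 4 of 7 HT tumors and 2 of 5 WT tumors. Lmo2 and Hhex were raised in 3 of 7 KO tumors, 2 of 7 HT tumors and 0 of 5 WT tumors. Mef2c, on its main probe set, was raised in 3 of 7 KO tumors, 4 of 7 HT tumors and 1 of 5 WT tumors. The difference between genotypes in these counts was not tested.

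**Figure D2:**
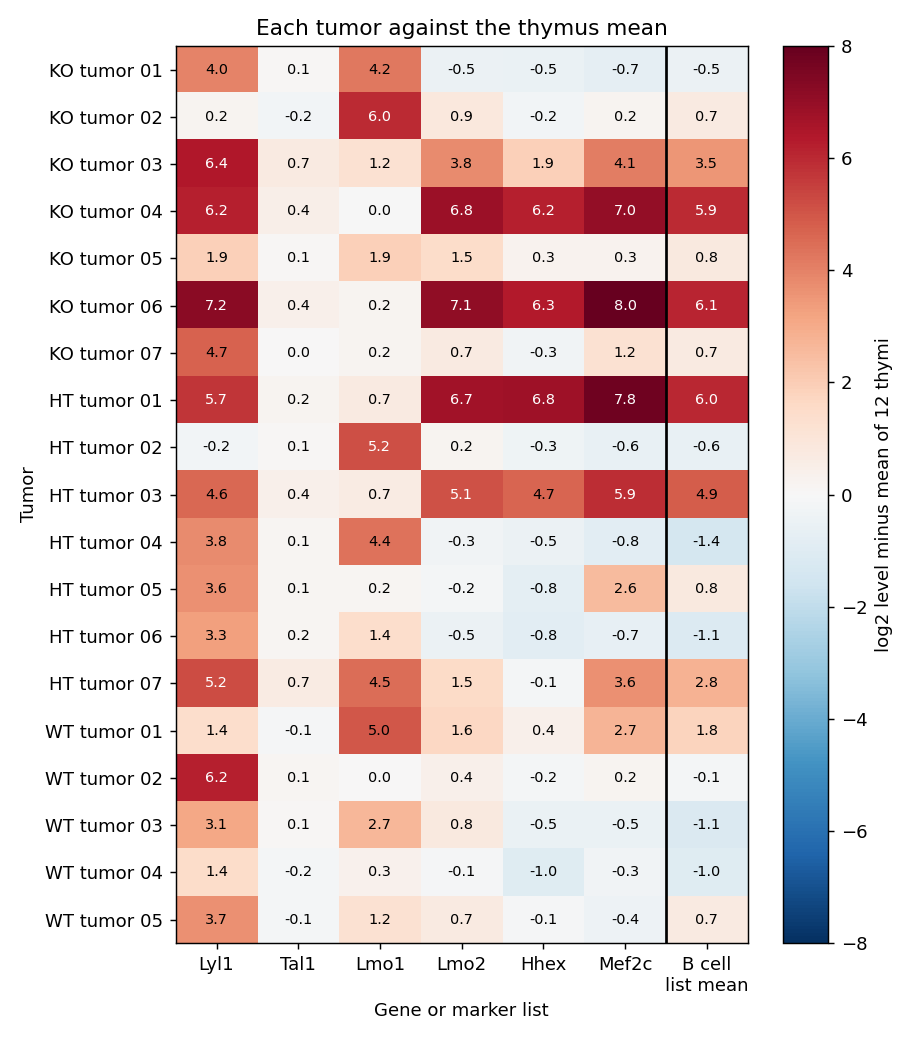
Rows are the 19 tumors, and columns are the 6 genes and the mean of the B cell marker list. Colours and numbers give the log2 level minus the mean of the 12 thymi. KO tumors 03, 04 and 06 and HT tumors 01 and 03 are raised in Lyl1, Lmo2, Hhex and Mef2c, and the tumors highest in Lmo1 are others.

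Among raised members, 2 combinations were found in 5 tumors each. Lyl1, Lmo2, Hhex and Mef2c were raised together in 5 tumors, KO tumors 03, 04 and 06 and HT tumors 01 and 03. Lyl1 and Lmo1 alone were raised together in 5 others, KO tumors 01 and 05, HT tumors 04 and 06, and WT tumor 03. In HT tumor 06 Lmo1 was 5.315, barely past the margin over the highest thymus of 4.309. Lyl1 was raised in 15 of 19 tumors, and its r with Lmo1 over tumors was negative (-0.614). How often other genes raised in as many tumors share tumors with Lyl1 was not counted, so these overlaps are a description only. Lyl1 was the only raised member in KO tumor 07 and in WT tumors 02 and 05, and Lmo1 was the only one in KO tumor 02 and HT tumor 02. The remaining tumors had Lyl1, Lmo1 and Mef2c (HT tumor 07), Lyl1 and Mef2c (HT tumor 05), Lmo1 and Mef2c (WT tumor 01) or no member raised (WT tumor 04). In HT tumors 05 and 07 Mef2c was raised on its main probe set only.

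By this margin of 1, Lmo1 was not raised with Lmo2 or Hhex in any tumor, as 9 tumors had Lmo1 alone of each such pair and 5 had Lmo2 or Hhex alone. With a margin of 0 the separation was lost, as Lmo1 and Lmo2 were both above the thymi in 8 tumors, and Lmo1 and Hhex in 3. How often other genes raised in as many tumors fail to overlap was not counted, so the separation is a description only. Lmo2 and Hhex were raised in the same 5 tumors, and Mef2c was raised in those 5 and in 3 more. Lyl1 was raised in all 5 tumors with Lmo2, and in 6 of the 9 with Lmo1, where it was raised in 15 of all 19 tumors. In KO tumor 06 the values were 11.99 for Lyl1, 11.74 for Lmo2, 10.44 for Hhex and 12.25 for Mef2c, with 4.16 for Lmo1. In KO tumor 02, by contrast, Lmo1 was 9.91 while Lyl1 was 4.97, Lmo2 5.51 and Hhex 3.93.

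Over all 19 tumors, 10 of the 15 pairs of members were correlated by r (permutation p, Benjamini-Hochberg adjusted over the 15 pairs, 100000 permutations), and 8 of them passed by rho as well. Lmo2 and Hhex followed each other most closely, with r = 0.981 and rho = 0.921 (permutation p = 1e-05, the smallest these permutations can give, adjusted p = 5e-05). Of all genes tested, 0.0143% correlated with Lmo2 as strongly as Hhex did. Without the 2 tumors farthest from the median of Lmo2, r was 0.965. Lmo2 with Mef2c gave r = 0.942 and rho = 0.874, and Hhex with Mef2c r = 0.921 and rho = 0.804 (permutation adjusted p = 5e-05 for each r). They were 0.907 and 0.858 without the 2 farthest tumors. Of all genes tested, 0.457% correlated with Lmo2 and 1.27% with Hhex as strongly as Mef2c did. For the other pairs that passed, such shares are given below.

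Lyl1 and Tal1 gave r = 0.713 and rho = 0.737 (permutation adjusted p = 0.0024), although Tal1 spanned only 3.17 to 4.14, and r was 0.711 without the 2 farthest tumors. Lyl1 gave r = 0.640 with Mef2c, 0.597 with Lmo2 and 0.588 with Hhex (permutation adjusted p = 0.0113, 0.0136 and 0.0136), with rho of 0.574, 0.444 and 0.535. Without the 2 farthest tumors these r were 0.637, 0.629 and 0.622. The rho with Lmo2 did not pass (permutation adjusted p = 0.0888). Of all genes tested, 4.39%, 6.51% and 6.96% correlated with Lyl1 as strongly as Mef2c, Lmo2 and Hhex did. The share was 1.78% for Tal1, and 0.664% of genes correlated with Tal1 as strongly as Lyl1 did. With Mef2c, Lmo2 and Hhex, 10.5%, 12.3% and 13.0% of genes correlated as strongly as Lyl1 did. For Tal1, r was 0.612 with Mef2c and 0.542 with Lmo2 (permutation adjusted p = 0.0121 and 0.0240), with rho of 0.530 and 0.412, and 0.687 and 0.677 without the 2 farthest tumors. Neither r passed once genotype and sex were removed (0.464 and 0.435, permutation adjusted p = 0.0758 and 0.0933). That with Lmo2 did not pass by rho (permutation adjusted p = 0.101) or without KO tumor 04 (r = 0.492, permutation adjusted p = 0.0552). Of all genes tested, 3.65% and 7.46% correlated with Tal1 as strongly as Mef2c and Lmo2 did. With Mef2c and Lmo2, 11.5% and 14.4% of genes correlated as strongly as Tal1 did.

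Lyl1 and Lmo1 gave r = -0.614 and rho = -0.596 (permutation adjusted p = 0.0121 for r and 0.0249 for rho). Without HT tumor 02 and KO tumor 02, which had the lowest Lyl1, r was -0.391 (permutation p = 0.120), so the relation rests on those tumors. Of all genes tested, 5.31% had an r with Lyl1 as low as the -0.614 of Lmo1, and 1.41% had an r with Lmo1 as low as that. Lmo1 with Lmo2, Hhex and Mef2c gave r of -0.395, -0.411 and -0.407, and none passed (permutation adjusted p = 0.101, 0.0963 and 0.0963). Their rho were -0.174, -0.182 and -0.453.

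**Figure D3:**
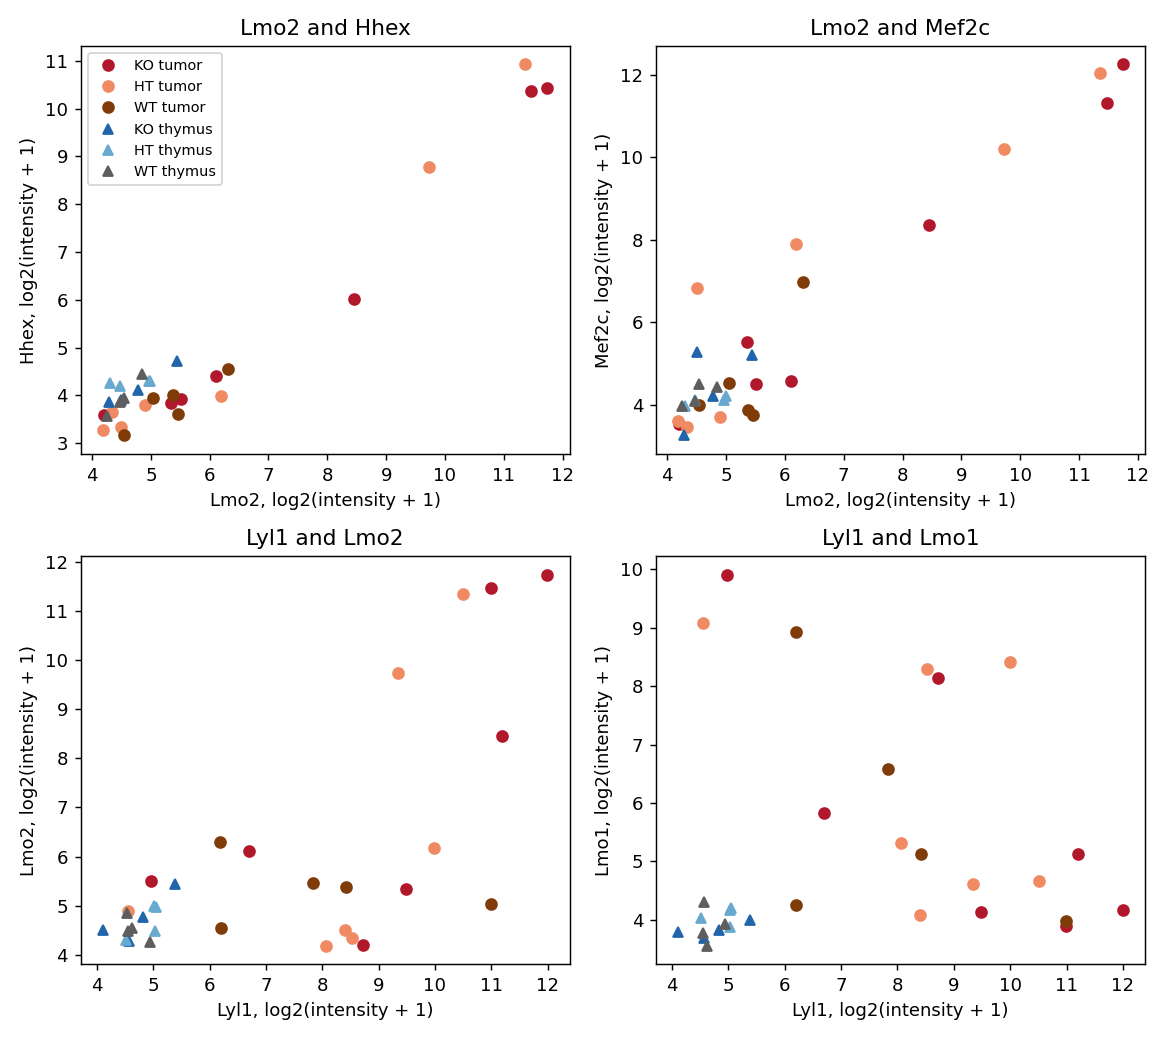
Each point is 1 array, and both axes are log2(intensity + 1). Circles are tumors and triangles are thymi. Lmo2 and Hhex rise together over tumors (r = 0.981), while the 2 tumors lowest in Lyl1 are the 2 highest in Lmo1.

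The tumors with Lmo2, Hhex and Mef2c raised were also the 5 tumors highest in B cell markers. The mean of 10 of the 12 listed B cell and plasma cell genes was 12.16 in KO tumor 06, 12.11 in HT tumor 01, 12.01 in KO tumor 04, 10.93 in HT tumor 03 and 9.58 in KO tumor 03. It was 4.65 to 8.86 in the other 14 tumors and 5.55 to 6.87 in thymi. Of the 12 listed genes, Cd79a, part of the B cell receptor, reached 13.87 in KO tumors and 13.37 in HT tumors, against 8.60 in WT tumors. Pax5, which sets B cell identity and was under the filter, reached 8.92 in KO tumors, 6.38 in HT tumors and 3.42 in WT tumors. In tumors relative to thymi, 0 of the 10 genes tested were called higher and 0 lower, where 11.6% and 12.6% of all genes were. The differences ran between -1.19 for Cd79b and +2.35 for Cd22, with a median of +1.17. KO tumors 04 and 06 were also lowest in thymocyte genes, at 9.33 and 9.53.

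**Figure D4:**
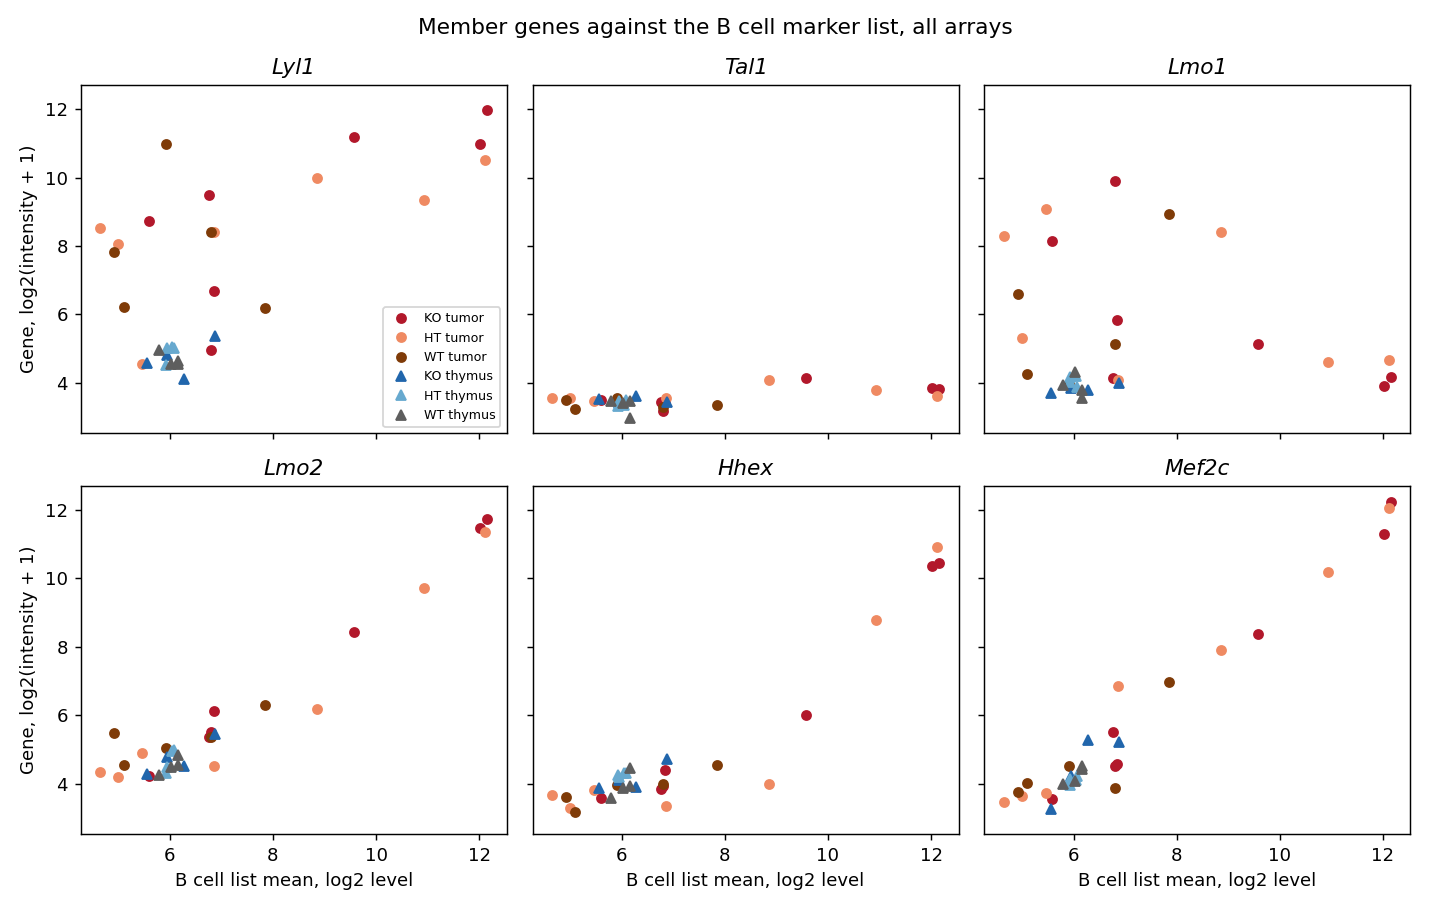
Each panel plots 1 gene, as log2(intensity + 1), against the mean log2 level of 10 B cell and plasma cell genes, for all 31 arrays. Lmo2, Hhex and Mef2c follow the list (r = 0.961, 0.931 and 0.977 over 19 tumors), and Lyl1 is also high in tumors with low B cell markers, such as WT tumor 02 at 10.997.

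Over the 19 tumors, r with the B cell list mean was 0.977 for Mef2c, 0.961 for Lmo2 and 0.931 for Hhex, with rho of 0.942, 0.856 and 0.858 (permutation adjusted p = 0.00015 for each r, over 60 relations of members with lists). Without the 2 tumors farthest from the median, r was 0.963, 0.939 and 0.890. It was 0.616 for Lyl1 and 0.589 for Tal1 (permutation adjusted p = 0.0202 and 0.0257), with rho of 0.547 and 0.512, which did not pass (adjusted p = 0.0518 and 0.0711). Without the 2 farthest tumors these r were 0.643 and 0.633. For Lmo1 r was -0.366 and rho -0.333, and neither passed. Macrophage and neutrophil lists also moved with Lmo2, at r = 0.687 and 0.846 (permutation adjusted p = 0.00465 and 0.0006), with rho of 0.733 and 0.628, and r of 0.707 and 0.762 without the 2 farthest tumors. With the thymocyte list, r was -0.757 for Mef2c, -0.731 for Lmo2, -0.688 for Hhex and -0.560 for Lyl1. These r passed (permutation adjusted p = 0.0012, 0.0042, 0.0139 and 0.0356). Their rho were -0.719, -0.565, -0.395 and -0.502, and those of Hhex and Lyl1 did not pass. Over the 15 tumors without those highest in B cell markers, the r were -0.633, -0.381, -0.209 and -0.281. For Tal1 and Lmo1, r was -0.413 and 0.449 and did not pass. How much of the level of each member came from other cell types was not tested.

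Leaving out the 4 tumors highest in B cell markers (KO tumors 04 and 06, HT tumors 01 and 03) left 5 of the 15 pairs correlated by r over the other 15 tumors, of which 2 also passed by rho, Lmo2 with Hhex and Lmo2 with Mef2c. Lmo2 with Hhex then gave r = 0.938, Lmo2 with Mef2c 0.725, Lyl1 with Tal1 0.671, Tal1 with Mef2c 0.650 and Hhex with Mef2c 0.621 (permutation adjusted p = 0.00015, 0.0151, 0.0264, 0.0346 and 0.0346). The rho of Lyl1 with Tal1 was 0.614 and of Hhex with Mef2c 0.604 (permutation adjusted p = 0.0723 for each), and that of Tal1 with Mef2c was 0.146. Lyl1 gave 0.280 with Lmo2, 0.319 with Hhex and 0.404 with Mef2c, and none of them passed. Lyl1 with Lmo1 gave -0.507 and did not pass (permutation adjusted p = 0.110). KO tumor 03, with a B cell list mean of 9.58, stayed among the 15 and was the only one with Lmo2 or Hhex raised. Over the 15, r with the B cell list mean was still 0.844 for Lmo2, 0.770 for Hhex and 0.909 for Mef2c. With the B cell list mean removed from every gene by regression over the 19 tumors, 1 of 15 pairs passed, Lmo2 with Hhex at r = 0.855.

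**Figure D5:**
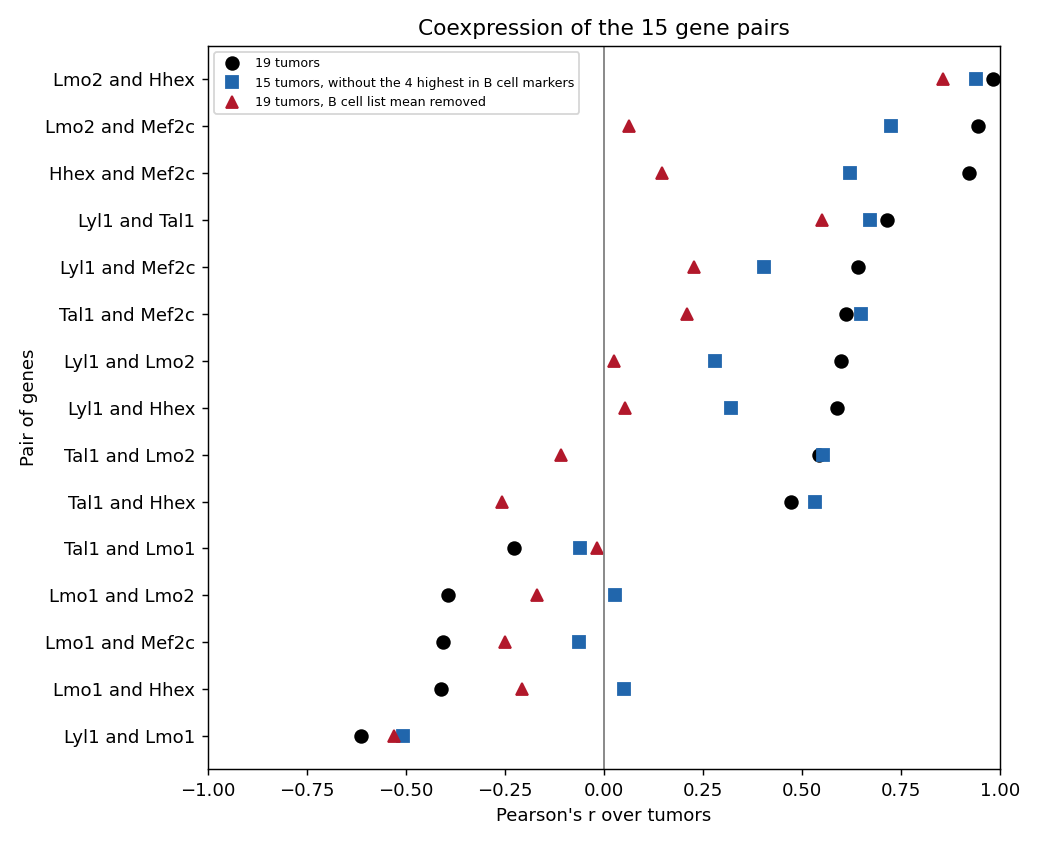
Pearson's r of each of the 15 pairs of members, over 19 tumors (circles), over 15 tumors without the 4 highest in B cell markers (squares) and over 19 tumors with the B cell list mean removed (triangles). Lmo2 with Hhex stays at r of 0.855 or more in all of them, while Lmo2 with Mef2c is 0.942, 0.725 and 0.0625.

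The genes most like each member over the 19 tumors, by Pearson's r among all genes tested, were mostly different from one member to the next. For Lyl1 they were Tmem229b (0.893), Ddhd2 (0.893), Trim68 (0.887), BC029722 (0.880) and Zmym5 (0.875). For Lmo1 they were Lbx2 (0.834), Tmem35a (0.822), Orc5 (0.797), Psmd14 (0.793) and Ano10 (0.790). For Lmo2 they were Pxdc1 (0.984), Btk (0.982), Hhex (0.981), Bcl11a (0.980) and Napsa (0.977), where Btk is the kinase of B cell receptor signalling. For Hhex they were Lat2 (0.992), 5430427O19Rik (0.991), Pxdc1 (0.990), Il12a (0.981) and Lmo2 (0.981). For Mef2c they were Rasgrp3 (0.985), Cd55 (0.980), Fcmr (0.971), Hvcn1 (0.971) and Cd79a (0.970). For Tal1 they were F10 (0.861), Map3k9 (0.834), Mettl21a (0.826), Lrrc56 (0.817) and Disp3 (0.812), a ranking made near the floor of the array. Over the other 15 tumors the r of these genes lay between 0.765 and 0.939.

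The proteins these members work with were read from a list of complex partners. Of 18 listed genes of TAL and LMO complexes, 17 were tested, and in tumors relative to thymi 3 rose and 4 fell. The median was -0.08 against +0.05 over all genes, of which 11.6% were called higher and 12.6% lower. Ssbp2, which stabilises LDB1, fell by 1.94 (limma adjusted p = 1.16e-07), and Ets1, Erg and Sin3a fell by 0.68, 0.38 and 0.30. Cbfa2t3, which encodes the corepressor ETO2, rose by 0.88, Ssbp4 by 0.77 and the E protein gene Tcf4 by 0.70. Ldb1 (-0.23), Gata3 (-0.08), Runx1 (-0.02), Tcf3 (+0.18) and Tcf12 (-0.10) did not pass.

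Among 18 other transcription factor genes of T cell leukemia, 14 were tested, 2 rose and 1 fell. The median was +0.05, as over all genes, of which 11.6% were called higher and 12.6% lower. As a set these genes were thus near that background. Etv6 rose by 1.31 and Myc by 0.87 (limma adjusted p = 2.07e-06 and 0.0263), and Hoxa9 fell by 0.37 (limma adjusted p = 0.0211). Tlx1, Olig2 and Hoxa10 differed by +0.04, -0.04 and +0.06 and did not pass, and Tal2, Lmo3, Tlx3 and Nkx2-1 were under the filter. Of 16 early T cell progenitor genes, 13 were tested, 2 rose and 2 fell, with a median of +0.16, where 11.6% of all genes were called higher and 12.6% lower. Kit, the stem cell factor receptor, rose by 2.08 (limma adjusted p = 0.00781), and Cd44 rose by 1.19 (limma adjusted p = 0.0391). Erg and Hoxa9, named above, are the 2 that fell, and Il7r differed by -1.52 and did not pass (limma adjusted p = 0.101). Over tumors, the mean of this list gave r = 0.892 with Mef2c, 0.865 with Lmo2 and 0.637 with Lyl1 (permutation adjusted p = 0.00015, 0.00036 and 0.0139). Their rho were 0.754, 0.647 and 0.679, and r was 0.843, 0.763 and 0.671 without the 2 farthest tumors. Over the other 15 tumors these r were 0.580, 0.340 and 0.425. The progenitor list mean includes Bcl11a, which itself gave r = 0.980 with Lmo2 over all tumors, so the r of the list with Lmo2 is partly built in. The neutrophil list gave similar r over all tumors, 0.843 with Mef2c and 0.846 with Lmo2, and 0.464 and 0.333 over the other 15. Such values are thus not particular to progenitor genes. Whether they follow B cell content was not tested. Of 7 fibroblast markers tested, 4 were called higher in tumors and 0 lower, where 11.6% of all genes were called higher, and r of their list with each member lay between -0.336 and 0.0566 over tumors.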

How the data were processed

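RNA was measured on 31 Affymetrix mouse genome arrays, 12 of thymus and 19 of tumor. The deposited values were intensities on a linear scale, with a value for each probe set of each array, produced by GCRMA per the submitters' processing notes (version not given in the sources used here). All arrays shared a median intensity of 20.0. Of 45101 probe sets, 1 had no value and 34957 named a single gene. The analysis used log2(value + 1), each gene was read by its probe set of highest mean, and genes above the 25th percentile of the mean (3.61) were tested, 14016 of 18193 (77.0%). Models were fitted in R 4.3.3 with limma 3.58.1 (lmFit, eBayes, 2-sided, Benjamini-Hochberg), with sex as a covariate. Fitted differences can therefore depart from those between the group values given. The fitting code was also run on simulated data with independent normal noise for each gene. Such data do not hold the few very high tumors shared by several members here, so they do not bear on these calls. Tumors and thymi were fitted together, or apart for genotypes. Correlations used 100000 permutations, 2-sided (Python 3.11.15, scipy 1.17.1). Where neighbouring values of a gene were apart by more than 0.4 of its range no pooled r was to be given; no gene reached this. Sequences and coordinates came from RefSeq (GRCm38.p6). The members and lists were chosen with earlier results of these data known. Genes named are the members, their 5 closest genes by r, Stk38, up to 4 called genes of a list, and partners or markers of a member. Of the lists also read, mast cell, erythroid and megakaryocyte, endothelial and thymic epithelium markers had 3, 6, 4 and 7 genes tested. They gave 0, 2, 1 and 0 genes higher in tumors and 0, 2, 0 and 4 lower, where 11.6% and 12.6% of all genes were.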

Additional observations from a re-analysis of the deposited data

Results flagged for a closer look

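Each member was looked at for 1 array that stood far from the rest of its group, in 36 sets of values, and chance flags about 1 in 20 of such sets. Lyl1 in HT thymus M_02 was 4.522, the lowest of 4, and its gap to the next value was 0.959 of the range of the group, which was itself narrow. Lyl1 in HT tumor 02 was 4.555, the lowest of 7, while Lmo1 in the same tumor was 9.08. Tal1 in WT thymus F_01 was 2.979, the lowest of 4. Mef2c in WT tumor 01 was 6.973, the highest of 5, and the B cell list mean of that tumor, 7.84, was also the highest among WT tumors.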

How the results depend on the processing

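The calls of Lyl1 and Lmo1 in tumors relative to thymi were kept in all 41 alternatives run for each, with Lyl1 between +2.80 and +3.90 and Lmo1 between +1.99 and +2.88. Lmo2, Hhex, Mef2c and Tal1 passed in none of theirs, and Hhex ran between -0.32 and +0.99. Without sex in the fit Lyl1 was +3.76, Lmo1 +2.07, Lmo2 +1.79, Hhex +0.99, Mef2c +1.92 and Tal1 +0.14. Within HT, Lyl1 passed without HT tumor 02 (+3.84) and with array weights (+2.49), and array weights also brought Lmo1 past the threshold in HT (+3.15) and KO (+2.83) and Lyl1 in WT (+3.25). The count of 10 correlated pairs was 9 to 11 with single tumors left out, 8 with genotype and sex removed, 5 without the 4 tumors highest in B cell markers and 1 with the B cell list mean removed, an alternative chosen after seeing the data. In that last setting Tal1 with Lmo2 turned to r = -0.109. The cause of these changes was not tested. With a margin of 0 in place of 1, Lmo2 was above the thymi in 10 tumors and Tal1 in 5, and Lmo1 and Lmo2 were no longer apart. Same-numbered arrays did not deviate together in tumors (3 of 17 pairs over 0.1). In thymi, however, 5 of 6 distinct correlations were over 0.1, the highest 0.204, so whether the numbers pair thymi is not known. The main fits did not pair samples. A fit with the number as a replicate block was made for the genotype comparisons within thymi and within tumors, not for tumors against thymi. It called 0 of 36 member results, as did the fit without it, with Lyl1 at +1.17 in KO against WT tumors.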
